A study of Mus musculus with 3 samples.

Results

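In mouse bone marrow (BM), 10 Kruppel-like factors of blood cells were followed after 0, 3 and 5 days of LECT2: Klf2, Klf3, Klf4, Klf6, Klf7, Klf9, Klf10, Klf11, Klf13 and Klf16. These 10 genes, of 17250 gene names in the deposited tables, were taken by their symbol, and the set was put together because Klf2 fell steeply. The members were thus chosen by the RPKM of Klf2 in these libraries, whose values are given as a description. All 10 members had a row of their own in the tables and at least 111 reads in every library, so none was lost to a filter on low values.

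The samples were BM cells of C57BL/6 mice aged 6 to 8 weeks, flushed from the femur, tibia, pelvis and humerus, and sequenced as 1 mRNA library per time point. Recombinant LECT2 (leukocyte cell-derived chemotaxin 2, a secreted protein made mainly in the liver) was given under the skin at 300 μg per kg once a day for 3 or 5 days, and the 0-day group had no day of LECT2. No group with vehicle injections was analysed here, and the number of mice behind each library is not given in the sources used here. The libraries held 15146983 to 15523952 reads on genes, and the 10 genes with most reads took 12.5% of them at 0 days, 10.4% at 3 days and 5.38% at 5 days. Because that share shrank, each ratio was also computed under 4 other scalings of the libraries: TMM factors, median-of-ratios factors, totals without the 100 most abundant genes, and removal of the trend of the ratio on gene length. With 1 library per time point there was no replicate check, so no p-value was computed. Each ratio carries a 95% exact (Clopper-Pearson) interval from its read counts, which covers counting error only. PCR copies were not told apart, so even for counting error this interval may be too narrow.

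Kruppel-like factors are zinc finger proteins whose conserved C-terminal fingers bind GC-rich and CACCC-type sites in promoters. Their N-terminal parts differ and divide the family into activators that recruit acetyltransferases, repressors that bind CtBP, and repressors that bind Sin3. In blood, KLF2 keeps T cells quiescent, permits their exit into the circulation and restrains the activation of monocytes, KLF4 drives monocyte differentiation, and KLF6 acts in haematopoietic development and in inflammatory macrophages. Klf2, Klf4, Klf6 and Klf10 are also known as genes that cells induce within a short time of stimulation. Among the 10 members, 4 belong to the activators (Klf2, Klf4, Klf6, Klf7), 1 to the CtBP-binding repressors (Klf3) and 5 to the Sin3-binding repressors (Klf9, Klf10, Klf11, Klf13, Klf16).

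The genes lie on 10 different chromosomes, so none of them are neighbours. In GENCODE M21 (GRCm38), a later build than the mm8 named in the submitters' processing notes, Klf2 spans chr8:72319033-72321656 on the plus strand in 3 exons, and Klf6 spans chr13:5861482-5870394 on the plus strand in 4 exons. Klf4 lies at chr4:55527143-55532466 on the minus strand, and Klf3 at chr5:64803388-64832901 on the plus strand. RPKM (read counts divided by transcript length and by library size) depends on the length the authors used, which was 1816 bases for Klf2 and 4217 for Klf6. For 7 members this length was within 3% of the longest coding transcript in GENCODE. For Klf7 it was 1344 bases, 17.5% of that transcript, for Klf3 2314 bases, 44.3%, and for Klf9 3263 bases, 72.7%. Levels of Klf7, Klf3 and Klf9 against other genes rest on these shorter models. Their ratios between time points do not, except those with the length trend removed, which use the same lengths.

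RefSeq promoter windows (GRCm38.p6, 250 bases before to 50 bases after the start) matched 8 of the 10 members, all but Klf10 and Klf16. The stretches of 200 bases that end just before the first annotated base, in RefSeq or GENCODE, whichever lies further upstream, are shown for Klf2 and Klf6, the members with the largest falls, and for Klf4, the activator closest to Klf2 in function. They read 5′ to 3′ on the strand of the gene, and capitals mark matches on either strand to the motifs searched.
Klf2, chr8:72318833-72319032, plus strand: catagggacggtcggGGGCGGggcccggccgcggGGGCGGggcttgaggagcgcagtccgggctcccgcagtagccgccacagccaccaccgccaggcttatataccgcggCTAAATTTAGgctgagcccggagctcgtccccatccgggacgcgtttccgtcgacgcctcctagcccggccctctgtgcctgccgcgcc
Klf6, chr13:5861282-5861481, plus strand: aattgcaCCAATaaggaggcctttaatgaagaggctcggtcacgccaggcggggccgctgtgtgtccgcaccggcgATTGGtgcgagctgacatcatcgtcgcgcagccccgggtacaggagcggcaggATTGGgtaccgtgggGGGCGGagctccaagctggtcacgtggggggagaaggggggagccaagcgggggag
Klf4, chr4:55532476-55532675, minus strand: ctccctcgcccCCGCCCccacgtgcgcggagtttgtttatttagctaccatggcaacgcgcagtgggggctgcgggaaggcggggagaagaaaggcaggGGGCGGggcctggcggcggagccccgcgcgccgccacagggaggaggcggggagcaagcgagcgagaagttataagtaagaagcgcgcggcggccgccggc

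The motifs were CACCC (the box to which the family binds), CCGCCC (the GC box), CCAAT (the box bound by NF-Y), TATAAA (the TATA box), TGACG (the core of the cyclic AMP response element), the MEF2 site and the CArG box, each on both strands. CACCC and CCGCCC can overlap by shared C bases. In its stretch Klf2 held 2 GC boxes and the MEF2 site CTAAATTTAG, which begins 89 bases before the first annotated base. Klf2 was the one member among the 8 with a MEF2 site in its window, and 3.19% of all 32851 windows had one. Klf6 carried 4 CCAAT matches and 1 GC box in its whole window, against 37.4% of windows with any CCAAT and 35.7% with any GC box. A GC box was present in 7 of the 8 windows, with 6 matches in Klf3 and none in Klf9. CACCC occurred in 5 of the 8 windows, most often in Klf3 with 5 matches, and 57.5% of all windows had it. TGACG was found in 5 of the 8 windows against 20.8% of all, while no window of a member had TATAAA (13.6% of all) or a CArG box (1.63% of all). The windows of the members were rich in G and C, from 58.3% in Klf7 to 77.7% in Klf11, compared with a median of 52.7% over all windows. These matches describe letters, not bound sites.

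At 0 days Klf2 was the most abundant of the 10 factors and one of the most abundant transcripts of the marrow. Its level was 1147 RPKM (32345 reads) at 0 days, 617 RPKM (16974 reads) at 3 days and 92.8 RPKM (2615 reads) at 5 days. The fall began by 3 days and was steeper afterwards, and each library lay far outside the counting error of the others. Klf2 stood at the 99.6th percentile of genes with reads at 0 days, at the 99.4th at 3 days and at the 95th at 5 days, so that it remained an abundant transcript. The log2 ratio of RPKM was −0.89 (counting interval −0.92 to −0.87) at 3 days against 0 days, which left 53.8% of the starting level. It was −3.63 (−3.69 to −3.57) at 5 days against 0 days, or 12.4-fold lower, and −2.73 (−2.79 to −2.67) at 5 days against 3 days. By 3 days, 50.3% of the RPKM lost at 5 days was already gone. Among the 6169 genes whose mean level reached 10 RPKM, 13 had a lower ratio than Klf2 at 5 days against 0 days and 20 lost more RPKM. In bulk marrow, fewer cells of a type and less RNA per cell cannot be told apart, for Klf2 as for each member below.

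Klf6, the second most abundant member at 0 days, fell less far than Klf2, and on the deposited scale also later. Its level was 302 RPKM (19764 reads) at 0 days, 245 RPKM (15679 reads) at 3 days and 70.8 RPKM (4631 reads) at 5 days. On the deposited scale most of the loss came between 3 and 5 days, and 24.4% of it was present by 3 days. The log2 ratio of Klf6 was −0.30 (−0.33 to −0.27) at 3 days against 0 days and −2.09 (−2.14 to −2.05) at 5 days against 0 days, when 23.4% of the level was left and Klf6 was 4.27-fold lower. From 3 to 5 days it was −1.79 (−1.84 to −1.75). With the length trend removed Klf6 was at −0.62 at 3 days and −2.69 at 5 days against 0 days, beside −0.81 and −3.74 for Klf2. Klf6 was then closer to Klf2 at 3 days than on the deposited scale. In the same 6169 genes, 1404 had a lower ratio than Klf6 at 3 days against 0 days and 61 at 5 days against 0 days. The 2 comparisons with 0 days share the 0-day library. The Klf2 level was 3.8 times the Klf6 level per unit length at 0 days (3.73 to 3.87), 2.51 times at 3 days (2.46 to 2.57) and 1.31 times at 5 days (1.25 to 1.38), so the gap between both genes narrowed at each step.

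**Figure D1:**
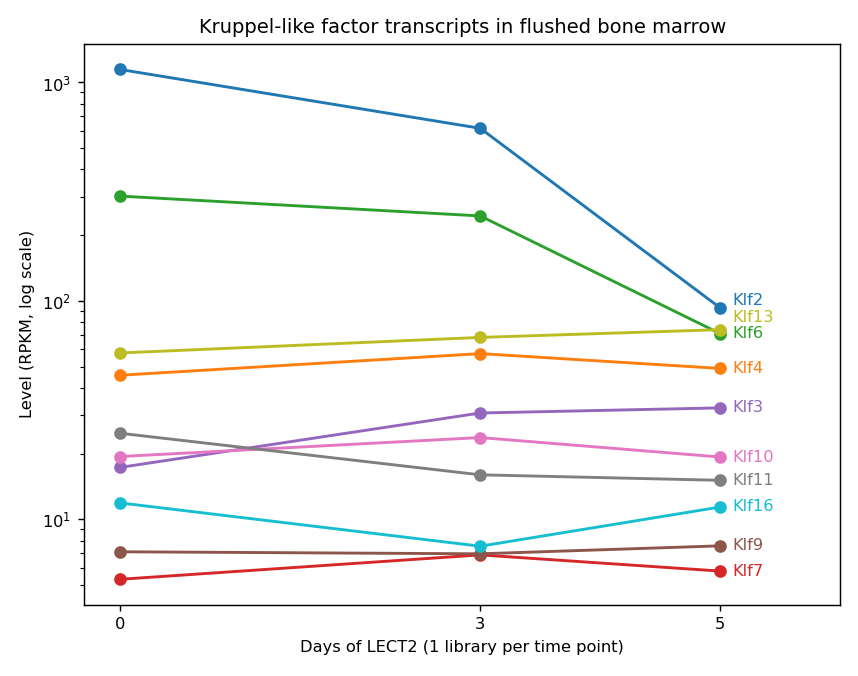
Level of each of the 10 Kruppel-like factors in RPKM (log axis) at 0, 3 and 5 days of LECT2, with 1 library per point and no replicate error to show. Klf2 drops from 1147 to 92.8 RPKM and Klf6 from 302 to 70.8 RPKM, while each of the other 8 changes by less than 2-fold.

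The remaining activators moved little. Klf4, which is required for inflammatory monocytes and is one of the reprogramming factors, was at 45.7 RPKM (2168 reads) at 0 days, 57.4 RPKM (2660 reads) at 3 days and 49.1 RPKM (2327 reads) at 5 days. It was highest in the 3-day library. The log2 ratio of Klf4 was 0.33 (0.25 to 0.41) at 3 days against 0 days and −0.23 (−0.31 to −0.15) at 5 days against 3 days, and both kept their direction under every other scaling tried. Over the whole 5 days it was 0.10 (0.02 to 0.19) on the deposited scale, and it turned negative, between −0.10 and −0.34, under the 4 other scalings. Klf7, known from neurons, fat and lymphoid leukaemia, was the scarcest member, with 5.32, 6.88 and 5.8 RPKM (111, 140 and 121 reads) at 0, 3 and 5 days. Its counting interval at 5 days against 0 days, −0.26 to 0.51 around a log2 ratio of 0.12, allows neither direction to be read. At 3 days against 0 days the Klf7 ratio was 0.36, and its interval only just left out 0.

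Klf3, a repressor that binds CtBP and acts in erythroid and B cells, was the member that rose most. It was at 17.3 RPKM (620 reads) at 0 days, 30.7 RPKM (1076 reads) at 3 days and 32.4 RPKM (1163 reads) at 5 days. Both LECT2 libraries lay above the 0-day library, and most of the rise was present by 3 days. In log2 ratios, Klf3 was at 0.83 (0.69 to 0.98) at 3 days against 0 days and 0.90 (0.77 to 1.05) at 5 days against 0 days, 1.78-fold and 1.88-fold. Under the 4 other scalings the 5-day ratio stayed positive, between 0.60 and 0.70. The value with the length trend removed, 0.64, rests on the short gene model given above. Between 3 and 5 days the Klf3 ratio was 0.08 (−0.04 to 0.20) on the deposited scale, but −0.15 with TMM scaling and −0.17 with the length trend removed, so no direction is read.

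Among the Sin3-binding factors, Klf11 was lower at both times. Klf11, which acts in transforming growth factor-β signalling and in pancreatic β cells, was at 24.8 RPKM (1531 reads), 16 RPKM (966 reads) and 15.1 RPKM (931 reads) at 0, 3 and 5 days. Both LECT2 libraries lay below the 0-day library, and they differed from each other by −0.09 (−0.22 to 0.04) on the log2 scale, or −0.31 with TMM scaling. Its log2 ratio was −0.63 (−0.75 to −0.51) at 3 days and −0.71 (−0.84 to −0.60) at 5 days, each against 0 days, and 60.8% of the level was left at 5 days. On the deposited scale this is less than 2-fold, but Klf11 was at −1.02 with TMM scaling, −1.01 with median-of-ratios scaling and −1.29 after removal of the trend on gene length. Klf16, a repressor described in the brain, dipped at 3 days and came back, from 11.9 RPKM (491 reads) through 7.54 RPKM (303 reads) to 11.4 RPKM (470 reads). On the log2 scale Klf16 was at −0.65 (−0.87 to −0.45) at 3 days against 0 days and 0.59 (0.39 to 0.81) at 5 days against 3 days. Over the whole 5 days it was −0.06 (−0.25 to 0.12), and −0.37 with TMM scaling.

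Klf13, an activator of the chemokine gene Ccl5 in T cells that also binds Sin3, was the most abundant of the Sin3-binding factors. Its level was 57.8 RPKM (5739 reads) at 0 days, 68.1 RPKM (6597 reads) at 3 days and 73.9 RPKM (7333 reads) at 5 days. Against 0 days, the Klf13 log2 ratio was 0.24 (0.19 to 0.29) at 3 days and 0.35 (0.30 to 0.40) at 5 days on the deposited scale, but it turned to −0.25 and −0.42 when the trend on gene length was removed, and was 0.05 at 5 days with TMM scaling. Klf13 has the longest transcript model of the members, 6396 bases. Klf10, a gene induced early by transforming growth factor-β, was at 19.4 RPKM (917 reads), 23.7 RPKM (1095 reads) and 19.3 RPKM (910 reads) at 0, 3 and 5 days. Klf10 was thus highest at 3 days, like Klf4. Its log2 ratio was 0.29 (0.16 to 0.42) at 3 days against 0 days and −0.30 (−0.43 to −0.17) at 5 days against 3 days, while over the whole 5 days it was −0.01 (−0.14 to 0.12) on the deposited scale and between −0.21 and −0.45 under the 4 others. Klf9, a target of glucocorticoid and thyroid hormone receptors, was at 7.11 RPKM (360 reads), 6.96 RPKM (344 reads) and 7.57 RPKM (383 reads). On the deposited scale all 3 of its intervals included 0, the widest running from −0.25 to 0.19 at 3 days against 0 days. At 5 days against 0 days the Klf9 ratio was 0.09 (−0.12 to 0.30), but −0.22 with TMM scaling and −0.39 with the length trend removed.

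Set against all genes with at least 1 RPKM in either library, the 10 members are described by their counts on the deposited scale. At 3 days against 0 days 0 of 10 members were at least 2-fold lower, where 2.41% of 11325 genes were, and 0 of 10 were at least 2-fold higher, where 4.08% of genes were. The counting interval lay below 0 for 4 members (Klf2, Klf6, Klf11 and Klf16; 26.2% of genes) and above 0 for 5 (Klf4, Klf7, Klf3, Klf10 and Klf13; 41.1% of genes), Klf13 turning negative with the length trend removed. The median log2 ratio was 0.10 over the 10 members and 0.10 over the 11144 genes whose mean reached 1 RPKM. At 5 days against 0 days 2 of 10 members, Klf2 and Klf6, were at least 2-fold lower, beside 5.91% of 11497 genes, and none were at least 2-fold higher, beside 15.5% of genes. Klf2 chose the set, so nothing is read from its call. Of all genes past 2-fold, 72.4% were higher on the deposited scale and 41.3% with TMM scaling, against 62.9% and 48.9% at 3 days against 0 days and 36.1% and 10.6% at 5 days against 3 days. The interval was below 0 for 3 members (22.3% of genes) and above 0 for 3 (Klf4, Klf3 and Klf13; 55.1% of genes), of which Klf4 and Klf13 turned negative under other scalings as given above. The members' median was 0.04 and that of all genes 0.31. That shift of all genes became 0.01 with TMM scaling, and 8 of the 10 members, all but Klf3 and Klf13, then had a ratio below 0 at 5 days against 0 days. The other scalings also put 8 members below 0, against 5 on the deposited scale. At 5 days against 3 days Klf2 and Klf6 were again at least 2-fold lower, 2 of 10 beside 3.45% of 11375 genes, and none were higher, beside 1.95%. The interval then lay below 0 for 4 members (Klf2, Klf4, Klf6 and Klf10; 15.3% of genes) and above 0 for 2 (Klf13 and Klf16; 54.4% of genes), of which Klf13 turned to −0.11 with TMM scaling. The members' median was −0.16 and that of all genes 0.25. On the deposited scale 6 members were below 0 in this comparison, and 9 were with TMM factors, with median-of-ratios factors and after length removal, and 7 without the 100 most abundant genes.

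Without Klf2 and Klf6, the other 8 members ranged from −0.65 (Klf16) to 0.83 (Klf3) at 3 days against 0 days, with a median of 0.26. They ranged from −0.71 (Klf11) to 0.90 (Klf3) at 5 days against 0 days, with a median of 0.10. Of the 4 activators at 5 days against 0 days, Klf2 and Klf6 were at least 2-fold lower under every scaling, whereas Klf4 at 0.10 and Klf7 at 0.12 stayed within 2-fold of their 0-day level. With TMM scaling Klf4 was at −0.21 and Klf7 at −0.18, and with the length trend removed they were at −0.34 and 0.17, so no direction is read for either. Of the 5 Sin3-binding factors, Klf11 was lower at 5 days under every scaling, and Klf10 and Klf16 were below 0 under all 5 with intervals that included 0 on the deposited scale. The rise of Klf13, 0.35 on the deposited scale, was −0.42 with the length trend removed, 0.05 with TMM scaling and 0.06 with median-of-ratios scaling.

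**Figure D2:**
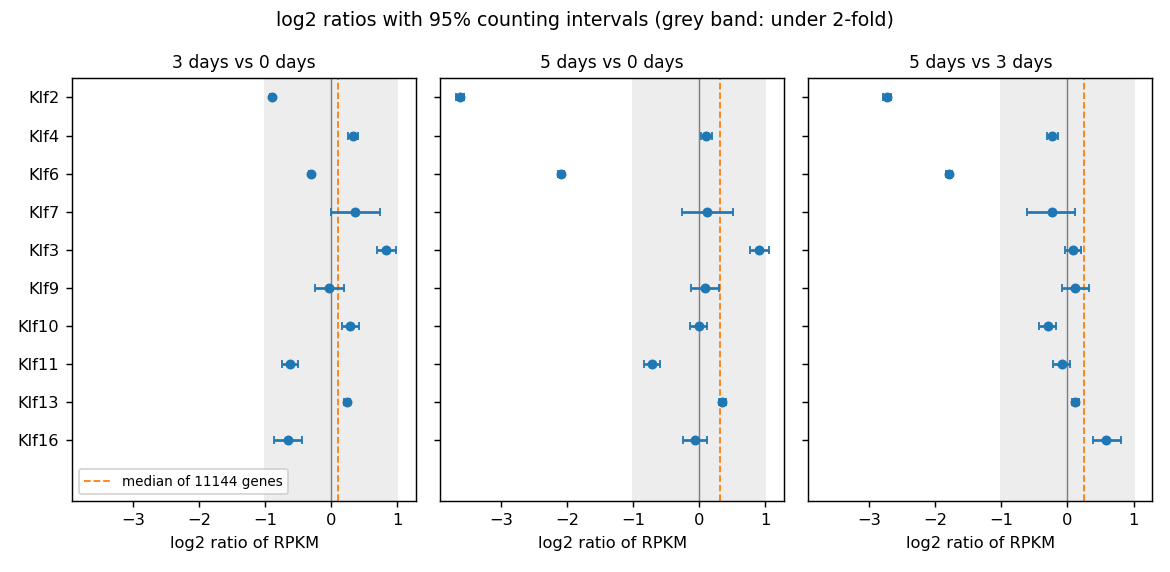
The log2 ratio of RPKM for each member in the 3 comparisons, with the 95% counting interval as a bar, the range under 2-fold in grey and the median of 11144 genes as a dashed line. Klf2 at −3.63 and Klf6 at −2.09 leave the grey band at 5 days against 0 days, and Klf3 at 0.90 lies inside its upper edge.

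**Figure D3:**
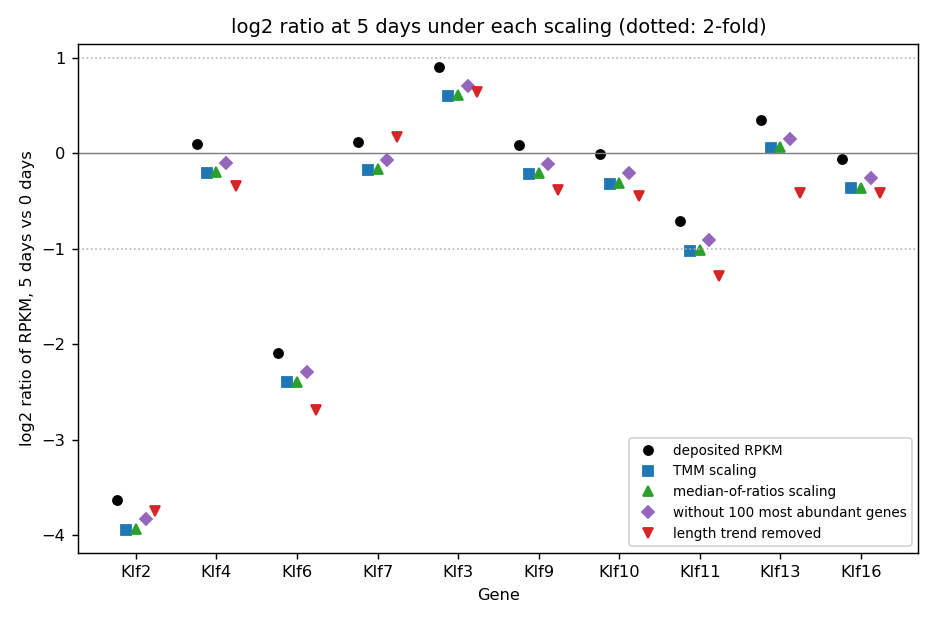
The log2 ratio of each member at 5 days against 0 days on the deposited scale and under the 4 other scalings, with dotted lines at 2-fold. Klf2 and Klf6 stay below the lower line and Klf3 above 0 under all 5, whereas Klf4, Klf7, Klf9 and Klf13 cross 0 and Klf11 crosses the 2-fold line.

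The make-up of the family pool changed, which follows in part from the choice of the set by the fall of Klf2, its most abundant member. Summed over the 10 members, the level was 1638 RPKM at 0 days, 1080 RPKM at 3 days and 378 RPKM at 5 days. In reads the members took 0.413% of the library at 0 days, 0.303% at 3 days and 0.135% at 5 days. Without Klf2 and Klf6 the sum was 189, 217 and 214 RPKM, so the loss of the pool was that of these 2 genes. Klf2 made up 70%, 57.1% and 24.5% of the pool at 0, 3 and 5 days. The Klf6 share changed little, from 18.4% through 22.7% to 18.7%. Klf13 went from 3.53% to 19.5% of the pool, Klf4 from 2.79% to 13% and Klf3 from 1.05% to 8.57%, while their own levels changed by less than 2-fold. At 5 days the marrow thus held Klf2, Klf13, Klf6 and Klf4 at levels within 2-fold of each other. At 0 days Klf2 had been at 3.8 times Klf6, the next member.

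**Figure D4:**
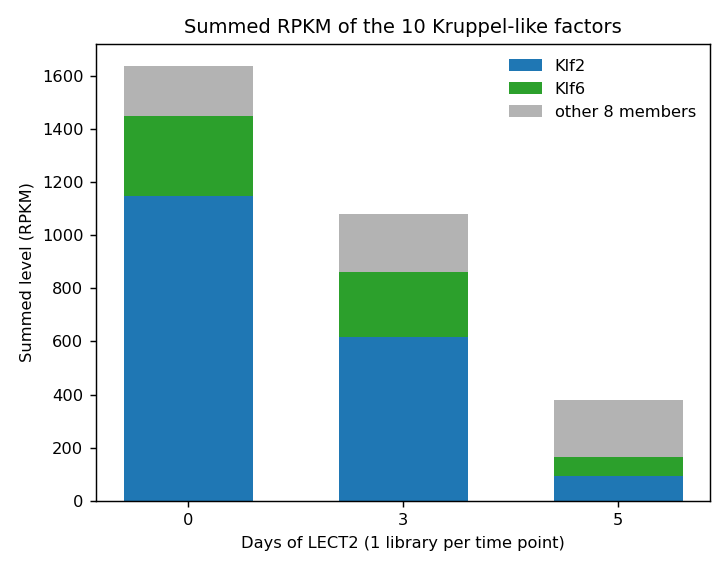
Summed RPKM of the 10 factors at 0, 3 and 5 days (1 library each), stacked as Klf2, Klf6 and the other 8. The total falls from 1638 to 378 RPKM, and the grey part for the other 8 stays between 189 and 217 RPKM.

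At 0 days the order of levels per length was Klf2, Klf6, Klf13, Klf4, Klf11, Klf10, Klf3, Klf16, Klf9 and Klf7. Every neighbour in this order differed by more than counting error, the closest being Klf10 over Klf3 at 1.12 times (1.01 to 1.25). At 3 days Klf3 had moved up from the seventh place to the fifth, ahead of Klf10 and Klf11. Klf16 and Klf9, at a ratio of 1.08 (0.926 to 1.27), and Klf9 and Klf7, at 1.01 (0.829 to 1.24), could then not be separated. At 5 days Klf13 had passed Klf6, although by only 1.04 times (1.01 to 1.08), and Klf2 was still first, at 1.26 times Klf13. Klf7 was the lowest at 0 and 5 days, on the short gene model given above.

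No other member of the KLF and SP family fell as Klf2 did. Of 16 listed, 12 had a row, and 7 of these had a mean of at least 1 RPKM. After 5 days, 2 of the 7 (Sp2 and Sp3) were at least 2-fold higher, beside 15.5% of all genes, and none lower. That count was 0 with TMM scaling, median-of-ratios scaling and length removal, and 1 without the 100 most abundant genes. Their median log2 ratio was 0.84, and it was 0.56 with TMM scaling and 0.04 after removal of the trend on gene length. Sp3, a ubiquitous relative that binds the same GC boxes, was at 23.9, 48.5 and 54.7 RPKM at 0, 3 and 5 days. Its log2 ratio at 5 days was 1.19 (1.11 to 1.28), and 0.59 with the length trend removed. Sp2 was at 12, 21.3 and 28.2 RPKM, and Sp1, the founding member of the SP group, at 18, 28.3 and 32.9 RPKM. Klf1, the erythroid factor, was at 26.5, 21.3 and 27.8 RPKM, with a 5-day log2 ratio of 0.07 (−0.09 to 0.23). Klf5 was at 16.1, 15.7 and 10 RPKM, a 5-day log2 ratio of −0.69 (−0.92 to −0.47). Klf12, Klf15 and Klf17 had 8 reads or fewer in each library, too few for a ratio.

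Proteins that bind Kruppel-like factors were followed by 10 co-regulator transcripts. None of the 10 were at least 2-fold lower at 5 days against 0 days (5.91% of all genes), and 1, the acetyltransferase gene Ep300, was at least 2-fold higher (15.5%), shares near those of all genes. Ctbp1, the partner of KLF3, was at 111, 95.3 and 110 RPKM at 0, 3 and 5 days, a 5-day log2 ratio of −0.01 (−0.07 to 0.05) beside the 0.90 of Klf3. The median over the 10 was 0.28, and −0.03 with TMM scaling. Ep300 itself went from 11.2 to 24.4 and 31.4 RPKM, a 5-day log2 ratio of 1.47, which was 0.58 with the length trend removed and then under 2-fold.

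The MEK5 and ERK5 kinases act through MEF2 factors to switch on Klf2 and Klf4, and the ubiquitin ligases WWP1, SMURF1 and FBXW7 send KLF2 protein to degradation. Of 10 genes of these routes, 3 (Mef2a, Mef2d and Map3k3) were at least 2-fold higher, beside 15.5% of all genes, and none lower at 5 days against 0 days. Under each of the 4 other scalings Map3k3 left this count, at 0.56 to 0.82, and Fbxw7 became at least 2-fold lower. The median log2 ratio of the 10 was 0.69, and −0.03 with the length trend removed. Mef2a was at 5.29, 17.7 and 24.8 RPKM at 0, 3 and 5 days. Its log2 ratio at 5 days was 2.21 (2.02 to 2.44), and at least 1.80 under the other scalings. Mef2d rose from 24.9 to 48.2 and 67.4 RPKM. Any part of these genes in the Klf2 ratio was not tested. Mef2c was at 25.5, 19.7 and 22 RPKM, and Mapk7, which encodes ERK5, at 13.9, 18.5 and 16.8 RPKM. Fbxw7 was at 12.3, 8.46 and 6.59 RPKM, a 5-day log2 ratio of −0.89 (−1.07 to −0.73), and −1.19 with TMM scaling. The other ligase genes lay above 0, Wwp1 at 0.80 (0.65 to 0.98) and Smurf1 at 0.48 (0.27 to 0.70) on the deposited scale, but turned to −0.03 and −0.22 with the length trend removed.

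Genes known as targets of KLF2, KLF4 or KLF6 lay on both sides of 0. Of 7 that could be compared, 1 was at least 2-fold lower at 5 days against 0 days (2 under each of the 4 other scalings, with S1pr1), beside 5.91% of all genes, and none were higher, beside 15.5%, with a median log2 ratio of −0.43 on the deposited scale. Ccr7, the receptor that guides lymphocytes and dendritic cells to lymph nodes, was at 66.5, 36.2 and 12.8 RPKM. Its log2 ratio at 5 days was −2.37 (−2.53 to −2.22). S1pr1, a target by which KLF2 governs the exit of T cells, was at 31.9, 30.3 and 18 RPKM, with a 5-day log2 ratio of −0.82 (−0.95 to −0.70) and −1.13 with TMM scaling. Itgb7 was at 51.6, 64.1 and 89.3 RPKM, and Thbd, an endothelial and monocyte target, at 6.19, 12.5 and 12.2 RPKM. Nos3, the endothelial target, had 2 reads or fewer in each library.

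Immediate early genes outside the family were mostly lower at 5 days, with little change at 3 days. The 15 such genes include the AP-1 subunits and the EGR and IER genes. At 3 days against 0 days 1 (Ier3), or 0 with the length trend removed, was at least 2-fold lower, beside 2.41% of all genes. At 5 days against 0 days 13 were, all but Egr3 and Myc, beside 5.91%. At 3 and 5 days the medians of the 15 were −0.24 and −1.64, beside −0.30 and −2.09 for Klf6 and −0.89 and −3.63 for Klf2. With the length trend removed the median was −0.27 at 3 days, where Klf6 was at −0.62 and Klf2 at −0.81. Egr1 was at 284, 209 and 34.2 RPKM, a 5-day log2 ratio of −3.05. Zfp36, which encodes an mRNA decay factor, was at 1228, 1055 and 395 RPKM, so its level was close to that of Klf2 at 0 days and well above it at 5 days.

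The 5 genes whose pair of log2 ratios to 0 days lay nearest to that of Klf2, among 6168 genes of that mean level, were Tnf, Cxcl10, Il1r2, G0s2 and Retnlg. The distance, over 3 libraries and with the 0-day library shared, was 0.33 for Tnf and 0.57 for Retnlg in log2 units. With the length trend removed, a check added after the data were seen, it was 0.06 for Cxcl10, 0.36 for Tnf and 0.99 for Retnlg, so the order of these genes depends on that step. Tnf, the cytokine gene, was at 92, 60.5 and 6.61 RPKM at 0, 3 and 5 days. Cxcl10, a chemokine gene, was at 106, 49.7 and 6.79 RPKM, and Il1r2, a decoy receptor gene, at 226, 109 and 14 RPKM. On the deposited scale only these 3 lay within 0.5 of Klf2.

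The labelled marrow origin was checked by markers, and markers of several cell types differed between the same libraries. The shares of all genes to set beside the counts below are 2.41% lower and 4.08% higher at 3 days, and 5.91% lower and 15.5% higher at 5 days. Markers of late neutrophils fell at 5 days, 10 of 10 by at least 2-fold (9 with the length trend removed), their median being −1.84, after −0.19 at 3 days, which turned to 0.14 with the length trend removed. Summed, they stood at 149807, 115886 and 41359 RPKM, and none was at 0 reads. Single markers ranged from −0.87 (Camp) to 0.82 (Cxcr2) at 3 days against 0 days on the deposited scale. For comparison, Klf2 was then at −0.89 and Klf6 at −0.30, or −0.81 and −0.62 with the length trend removed. Promyelocyte markers summed to 2241, 2075 and 3619 RPKM, with 1 of 5 (Mpo) at least 2-fold higher at 5 days. Monocyte and macrophage markers summed to 1484, 1764 and 2281 RPKM, and at 5 days 4 of 9 (Csf1r, Ccr2, F13a1 and Mpeg1), or 3 with TMM scaling, were at least 2-fold higher and 1 (Cd14) lower. The levels of Klf4, the monocyte factor, were 45.7 and 49.1 RPKM at 0 and 5 days over this rise.

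B cell markers summed to 2058, 1643 and 1468 RPKM, with 0 of 8 past 2-fold at either time on the deposited scale, and 1 lower at 5 days with TMM scaling. T and NK cell markers summed to 273, 181 and 252 RPKM. At 3 days 3 of 10 were at least 2-fold lower (Gzma, Cd3d and Cd3e), or 4 with TMM scaling and 1 with the length trend removed. At 5 days 1 was (Cd3d), or 2 with TMM scaling. Erythroid markers summed to 4445, 3615 and 1601 RPKM. At 5 days 2 of 8 (Hba-a1 and Hbb-b1), or 3 with TMM scaling, were at least 2-fold lower. These globin genes made up most of that sum, Hba-a1 going from 2253 to 596 RPKM and Hbb-b1 from 1696 to 527 RPKM, whereas Slc4a1 was at 109, 183 and 174 RPKM and Tfrc at 66.9, 68.9 and 72.9 RPKM. Megakaryocyte markers summed to 31.2, 16.5 and 25.9 RPKM, with 1 of 5 (Pf4) at least 2-fold lower at 3 days. At 5 days 0 were at least 2-fold lower on the deposited scale, and 1 with TMM scaling. Endothelial markers summed to 43.2, 36.7 and 46.4 RPKM and stem and progenitor markers to 69.3, 53.9 and 71.5 RPKM. Like Klf16, the sums of the promyelocyte, T and NK cell, megakaryocyte, endothelial and stem and progenitor lists were lowest in the 3-day library. Single genes of these lists differed, with Mpo, Il7r and Kit higher and Cd3d lower at each step. All 3 libraries thus carried RNA of the main marrow lineages, and endothelial cells are also known to be rich in Klf2. Pecam1, which leukocytes share, made up most of the endothelial sum, at 38.1, 33.5 and 41.7 RPKM, and each of the other 5 endothelial markers was at 2.51 RPKM or less in every library. The part of these cell types in the Klf2, Klf6, Klf11 and Klf16 ratios was not tested.

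**Figure D5:**
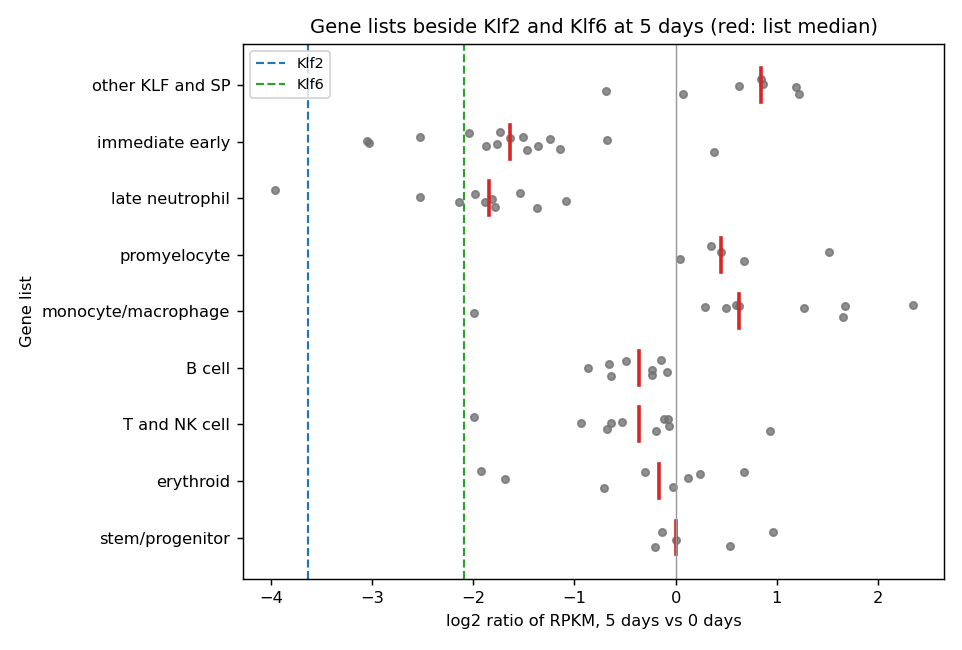
The log2 ratio at 5 days against 0 days of single genes (grey points, with a mean of at least 1 RPKM) in 9 lists (other KLF and SP genes, immediate early genes and 7 marker lists), with the list median in red and Klf2 and Klf6 as dashed lines. Immediate early genes and late neutrophil markers lie to the left with medians of −1.64 and −1.84, and the other 7 medians drawn lie between −0.36 and 0.84.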

How the data were processed

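BM cells of C57BL/6 mice after 0, 3 and 5 days of LECT2 were sequenced by the authors as 1 library each (TruSeq mRNA kit, Illumina HiSeq). The methods name Cufflinks for the quantitation, the submitters' processing notes name the build mm8, and the aligner is not given in the sources used here. The authors deposited 3 tables of pairwise comparisons with whole read counts per gene. The authors also deposited RPKM, which equalled the counts divided by gene length and by the library's gene reads within 0.1% in all but 18, 14 and 0 rows at 0, 3 and 5 days. For a gene without any read the tables give 0.01 RPKM, which was replaced by 0. The tables' own log2 ratios, P values and false discovery rates are the authors' comparisons of 2 libraries and were not used.

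The libraries held 15523952, 15146983 and 15514673 gene reads, and 1 read on Klf2 at 0 days was worth 0.0355 RPKM. Of the 17559 rows, 232 gene names had several, of which the one highest in mean RPKM was used. RefSeq gave a name, by gene ID, to 18 of the 28 rows that lack a symbol. Ratios are log2 ratios of RPKM + 0.1, and their 95% intervals (Clopper-Pearson, exact) come from the 2 read counts and cover counting error only. The pseudocount makes ratios of scarce genes smaller. The genes past 2-fold were counted where either library reached 1 RPKM, and no ratio is given where a library had 3 reads or fewer. With 1 library per time point there was no test, so "rose" and "fell" describe the libraries. Medians cover genes whose mean reaches 1 RPKM.

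The members and the gene lists were chosen with earlier results of these data known. The text names the 10 members, the 5 genes nearest to Klf2 by Euclidean distance between both log2 ratios to 0 days (mean of at least 10 RPKM), and of each list its most abundant genes and those past 2-fold. Lists were other KLF and SP genes, co-regulators, upstream kinases with MEF2 factors and ubiquitin ligases, known KLF targets, immediate early genes, and markers of late neutrophils, promyelocytes, monocytes and macrophages, B cells, T and NK cells, erythroid cells, megakaryocytes, endothelial cells and stem and progenitor cells.

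Alternatives were pseudocounts of 1 and 0.01, TMM factors (edgeR 4.0.16), median-of-ratios factors (DESeq2 1.42.0), totals without the 100 most abundant genes, removal of the trend on gene length (lowess, span 0.3, statsmodels 0.14.6), summing a gene's rows, a 5 RPKM minimum or none, and a threshold of 4-fold. Motifs were searched in 32851 RefSeq promoter windows of 27025 genes. The log2 ratio, the 2-fold call and the counting interval were tested on simulated counts that carry counting error only. The other scalings, the search for nearest genes and the motif search were not tested in this way. Python 3.11.15, pandas 2.3.3, numpy 2.4.6, scipy 1.17.1 and R 4.3.3 were used. Other experiments of the study were not analysed here, and 1 gene of the known KLF targets is not reported here.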

Additional observations from a re-analysis of the deposited data

How the results depend on the processing

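The falls of Klf2, Klf6 and Klf11 and the rise of Klf3 kept their direction at 3 and at 5 days against 0 days under every alternative run. Klf2 ranged from −3.94 to −3.61 and Klf6 from −2.69 to −2.08 at 5 days against 0 days. For Klf13, removal of the length trend gave −0.25 at 3 days and −0.42 at 5 days against 0 days and −0.19 at 5 days against 3 days, where TMM gave −0.11 and median-of-ratios −0.10. For Klf4 at 5 days against 0 days TMM gave −0.21, median-of-ratios −0.20, totals without the 100 most abundant genes −0.10 and length removal −0.34. The members' median moved to −0.24 at 3 days with length removal. At 5 days against 0 days it was −0.27 with TMM, −0.26 with median-of-ratios and −0.42 with length removal, and at 5 days against 3 days −0.38, −0.37 and −0.42. Members at least 2-fold lower at 5 days against 0 days numbered 3 in place of 2 under TMM, median-of-ratios and length removal.

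Counts of genes past 2-fold moved more. At 3 days against 0 days (462 higher, 273 lower) they were 190 and 120 with a pseudocount of 1, 236 and 118 with a minimum of 5 RPKM, 830 and 688 with no minimum, 36 and 33 at 4-fold, and 293 higher with length removal. At 5 days against 0 days (1786 higher, 680 lower) they were 816 and 1162 with TMM, 842 and 1141 with median-of-ratios, 153 and 186 at 4-fold, 1140 higher with a pseudocount of 1, 1086 higher without the 100 genes, 581 higher with length removal, 421 lower with the minimum of 5 RPKM and 1180 lower with none. At 5 days against 3 days (222 higher, 393 lower) they were 94 and 258 with the minimum of 5, 578 and 717 with none, 13 and 105 at 4-fold, and higher counts were 52 with a pseudocount of 1, 66 with TMM, 68 with median-of-ratios, 115 without the 100 genes and 75 with length removal. The cause was not tested.

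No paired analysis was possible because each time point had 1 library, and no library was left out for the same reason. Depth limits Klf7, with 111 to 140 reads, more than Klf2.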
